A study of Saccharomyces cerevisiae with 4 samples.

Results

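Lysine synthesis in Saccharomyces cerevisiae was followed through 9 genes, 8 of the pathway and the regulator gene LYS14, chosen by name and found through the probes that the platform annotation maps to them. Each gene had 1 probe, so 9 of the 6226 probes of the table belonged to the group, which became 9 of 6189 features once the probes of a gene were averaged. The table held 4 arrays with 2 channels each. Channel 1 carried total RNA of abf1-1 cells, whose general regulatory factor Abf1 is encoded by a temperature-sensitive allele, and channel 2 carried total RNA of wild type cells. Both strains grew in the rich medium YPAD at 30 °C until their OD600 was between 1.0 and 1.2, were mixed with as much YPAD preheated to 42 °C, and were kept for 45 min at 36 °C before RNA was taken, so the heat shift was common to mutant and wild type. YPAD supplies amino acids, lysine among them. The sources used here do not give other alleles of the strains, a lys2 marker among them, nor say whether separate cultures were used. The p-values therefore measure the spread between arrays, which may be technical.

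Fungi make lysine from 2-oxoglutarate by the aminoadipate route. Its early steps build a longer dicarboxylic acid in a series that resembles the tricarboxylic acid cycle and runs largely in mitochondria, and its later steps reduce aminoadipate to the semialdehyde and pass through saccharopine to lysine in the cytosol. Lysine inhibits the enzyme of the first step, and the intermediate aminoadipate semialdehyde acts as co-inducer of the activator Lys14, which raises transcription of several LYS genes. Amino acid starvation raises many of the genes further through Gcn4.

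The values below are log2 ratios of the channels on an array, centred on the median of that array. Neither the log base nor the strain in the numerator is stated, so the base was taken as 2 and signs are given as deposited: a negative ratio is not called lower in the mutant. The ratio of each feature over the 4 arrays was tested against 0 with limma, two-sided, with Benjamini-Hochberg adjustment over 6189 features, and a feature with an adjusted p below 0.05 is called. No spot brightness came with the table, and precision is limited by the number of arrays. The arrays did not all run alike: over all probes, which are not independent replicates, Pearson's r was 0.742 for arrays 1 and 3 and 0.864 for arrays 2 and 4, and lay between -0.221 and 0.050 for the other pairings. No label names a batch or a dye swap that would part them so, and values are therefore shown array by array. The limma p-values and intervals treat the 4 arrays as independent, which these correlations do not bear out. They may therefore understate the uncertainty. ABF1 itself had a ratio of 1.62 ± 0.43 (SD, n = 4), positive on every array, and was called (limma adjusted p 0.0254). The allele alters the protein and deletes nothing, so this does not check the labels.

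Of the 9 lysine genes 0 were called, against 3.23% of all features. At an unadjusted limma p below 0.05 there were 3 of the 9, LYS9, LYS20 and LYS21, all with negative ratios, against 20.8% of all features in either direction and 11.1% in the negative one. The mean ratio was negative for 6 genes and positive for 3, and 47.5% of all features had a negative mean. The median of the 9 means was -0.22, beside 0.02 over all features, and the means ran from -0.56 for LYS21 to 0.43 for LYS4. Across the arrays LYS9, LYS20 and LYS21 kept the negative sign, LYS1, LYS2 and LYS4 differed in sign between arrays 1 and 3 on the one side and arrays 2 and 4 on the other, and LYS5 stayed close to 0.

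**Figure D1:**
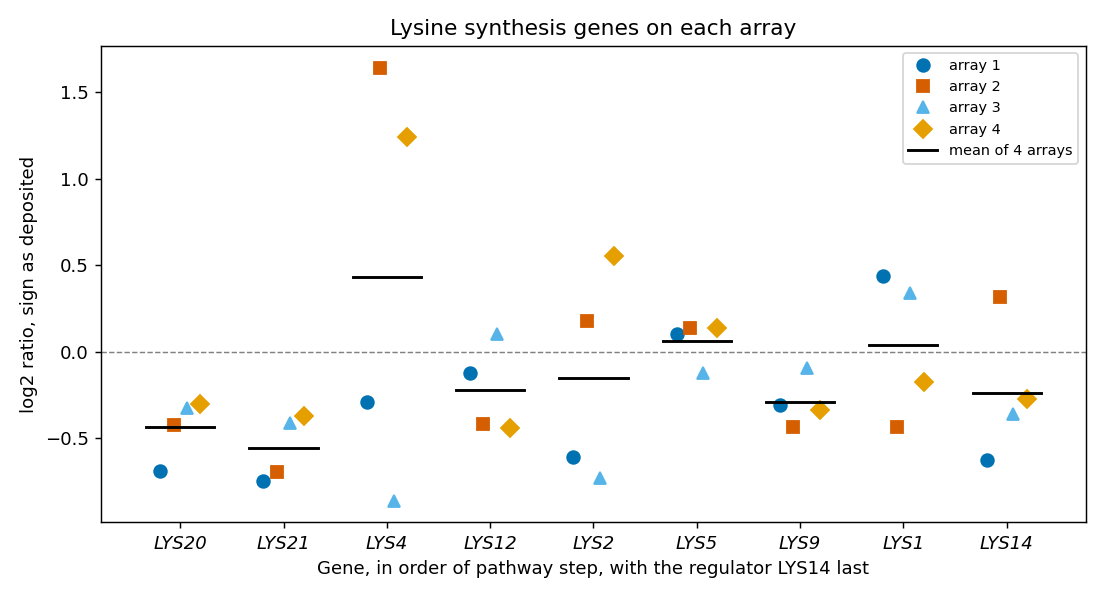
Log2 ratio (vertical axis, sign as deposited) of each of the 9 lysine genes (horizontal axis, in pathway order) on arrays 1 to 4 (symbols), with black lines at the mean of the 4 arrays. LYS20, LYS21 and LYS9 lie below 0 on all 4 arrays, while LYS4 spans from -0.86 to 1.64.

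LYS20 and LYS21 encode the homocitrate synthase isozymes, which join 2-oxoglutarate with acetyl-CoA in the committing step that lysine inhibits. LYS21 had ratios of -0.75, -0.70, -0.41 and -0.37 on arrays 1 to 4. All 4 lay below 0, with arrays 1 and 2 farther from it than arrays 3 and 4. The mean of -0.56 ± 0.19 (SD, n = 4), a 1.47-fold difference, was the lowest of the 9 genes, with a 95% confidence interval from -0.85 to -0.27. LYS21 missed the threshold with a limma adjusted p of 0.0725 (unadjusted 0.00362), and 3.78% of all features had a lower mean. LYS20 had -0.69, -0.42, -0.33 and -0.30. It too was negative throughout, lowest on array 1. Its mean was -0.44 ± 0.18 (SD, n = 4), a 1.35-fold difference, with an interval from -0.72 to -0.15 and a limma adjusted p of 0.114.

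The isozymes were close to each other on every array. The LYS21 ratio was below that of LYS20 by 0.06, 0.27, 0.09 and 0.07 on arrays 1 to 4, a mean difference of -0.12 ± 0.10 (SD, n = 4). An exact two-sided sign-flip permutation test of this difference gave p = 0.125, the smallest that 4 arrays allow. The genes are paralogs with similar coding sequences, and the sources used here do not say whether their probes tell the transcripts apart. Signal shared between the probes was not tested. Of the 5539 named genes, those nearest to LYS21 by Euclidean distance over the 4 array ratios were IPT1 and LAC1, which encode enzymes of sphingolipid synthesis, and SSA2, which encodes a cytosolic Hsp70. Their distances were 0.136, 0.179 and 0.193 and their means -0.55, -0.51 and -0.62. LYS20 was number 28 in that order, at a distance of 0.302, while LYS4 was number 5370. The other lysine genes ranged from number 316 for LYS9 to number 3101 for LYS1. LYS21 was the starting point because its mean lay farthest from 0 among the 9 genes. None of IPT1, LAC1, SSA2 and the lysine genes was called in the limma test, and the order rests on 4 arrays.

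Of the genes for the next steps, LYS4 had the negative sign of the isozymes on 2 arrays and LYS12 on 3. LYS4 encodes homoaconitase, the mitochondrial iron-sulphur enzyme that forms homoisocitrate. Its ratios were -0.29, 1.64, -0.86 and 1.24 on arrays 1 to 4. Arrays 1 and 3 lay below 0 and arrays 2 and 4 far above it; 98.7% and 97.4% of all features had a lower ratio on arrays 2 and 4, and 5.48% on array 3. The mean of 0.43 ± 1.20 (SD, n = 4) had a 95% confidence interval from -0.67 to 1.54 and a limma adjusted p of 0.635. Its SD was larger than that of 97.4% of features, and so was the distance of 2.02 between its averages on arrays 1 and 3 (-0.58) and on arrays 2 and 4 (1.44). LYS12 encodes homoisocitrate dehydrogenase, the mitochondrial enzyme that yields oxoadipate. It had -0.12, -0.42, 0.10 and -0.44, so that arrays 2 and 4 were lower than arrays 1 and 3, the reverse of LYS4. The mean was -0.22 ± 0.26 (SD, n = 4), with a limma adjusted p of 0.411.

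LYS2 encodes aminoadipate reductase, the large enzyme that makes the semialdehyde, and its loss is a common marker in laboratory strains that can be selected for or against. Its ratios were -0.61, 0.18, -0.73 and 0.55. As for LYS4, arrays 1 and 3 were negative and arrays 2 and 4 positive, and the distance between the averages of these arrays, 1.03, exceeded that of 88.6% of features. The mean was -0.15 ± 0.62 (SD, n = 4), with an interval from -0.76 to 0.45 and a limma adjusted p of 0.777. LYS5 encodes the phosphopantetheinyl transferase that turns the reductase into its active form. LYS5 stayed nearer to 0 than any other of the 9 genes in its largest ratio, with 0.10, 0.14, -0.12 and 0.13, and 11.6% of features had a smaller SD. Its mean of 0.06 ± 0.13 (SD, n = 4) had an interval from -0.20 to 0.32, and its limma adjusted p was 0.789. It was positive on arrays 1, 2 and 4 and negative on array 3, so its signs were not those of LYS2.

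LYS9 and LYS1 encode the saccharopine dehydrogenases of the last pair of steps, LYS9 the enzyme that forms saccharopine and LYS1 the enzyme that releases lysine. LYS9 had -0.31, -0.44, -0.09 and -0.34, negative throughout and closest to 0 on array 3. Its mean was -0.29 ± 0.15 (SD, n = 4), a 1.23-fold difference, with an interval from -0.56 to -0.03 and a limma adjusted p of 0.212. LYS1 had 0.43, -0.44, 0.34 and -0.17. Here arrays 1 and 3 were positive and arrays 2 and 4 negative, opposite to LYS2 and LYS4 on every array. The mean was 0.04 ± 0.42 (SD, n = 4), with an interval from -0.40 to 0.48 and a limma adjusted p of 0.919.

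LYS14 encodes the zinc cluster activator of the pathway. Its ratios were -0.63, 0.31, -0.36 and -0.28, negative on 3 arrays and positive on array 2. The mean was -0.24 ± 0.40 (SD, n = 4), with an interval from -0.66 to 0.19 and a limma adjusted p of 0.494. The transcript level of LYS14 does not measure the activity of the protein, which depends on the semialdehyde.

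Across the 9 genes, 3 were negative on all 4 arrays (LYS9, LYS20 and LYS21) and 0 were positive on all 4, against 16.4% and 14.7% of all features. Another 3 (LYS1, LYS2 and LYS4) had the same sign on arrays 1 and 3 and the other sign on arrays 2 and 4, a pattern met by 34.9% of all features. The sign was shared by arrays 1 and 3 for 7 of the 9 genes and by arrays 2 and 4 for 8, against 80.4% and 82.2% of all features, so these counts lay near the background. The median of the 9 ratios was -0.31, -0.42, -0.33 and -0.28 on arrays 1 to 4, where the centring puts the median of all probes at 0.

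**Figure D2:**
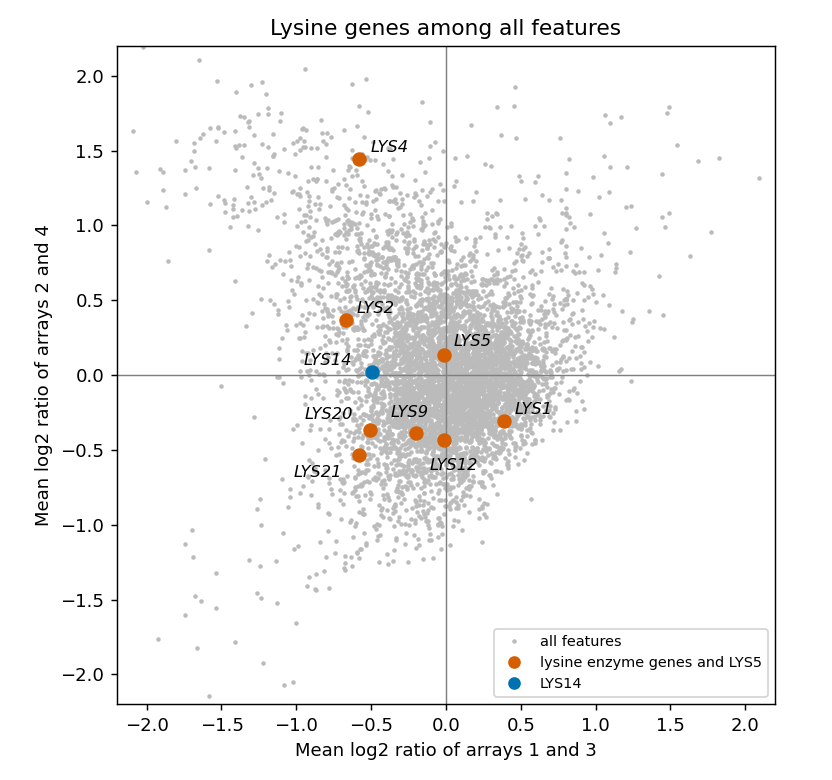
Mean log2 ratio of arrays 1 and 3 (horizontal axis) against that of arrays 2 and 4 (vertical axis) for all features (grey) and the 9 lysine genes (coloured), with 7 features outside the axes. LYS21 (-0.58 and -0.53) and LYS20 (-0.51 and -0.36) lie at the lower left, negative on both axes, while LYS4 lies at -0.58 and 1.44.

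When the pairs of arrays that correlated were given a term of their own in the limma fit, which leaves the spread within these pairs as the error, 4 of the 9 genes were called, LYS4, LYS9, LYS20 and LYS21, against 32.7% of all features. LYS20 and LYS21 were negative in both pairs, with limma adjusted p of 0.0108 and 0.00559, and LYS9 was negative in both at 0.0291. LYS4 was called there at 0.0286 although its pairs had opposite signs, since that fit takes no account of disagreement between pairs. The pairs were recognised from these ratios and are no groups of the study. Arrays 1 and 3 alone called 6 of the 9 genes, against 33.3% of features: LYS1, LYS2, LYS4, LYS14, LYS20 and LYS21. Arrays 2 and 4 alone called 5, against 42.0%: LYS4, LYS9, LYS12, LYS20 and LYS21. Both fits called LYS20 and LYS21 as negative, and called LYS4 with opposite signs. Each fit rests on 2 arrays picked because their ratios correlated, which keeps the error small. These calls are therefore no separate support for any gene.

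Genes that work beside the pathway were described through a list of 25 measured partners recalled from textbook knowledge. In the limma test 1 of the 25 was called, with a positive ratio, and 0 with a negative one, against 1.37% and 1.86% of all features. The means were positive for 15 and negative for 10, with a median of 0.10 beside 0.02 over all features. ARO8, which encodes an aminotransferase that can make aminoadipate from oxoadipate, had 0.39, -0.71, 0.19 and -0.28. Its signs were those of LYS1, positive on arrays 1 and 3 and negative on arrays 2 and 4, and its mean was -0.10 ± 0.49 (SD, n = 4; limma adjusted p 0.823).

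Among the 8 genes for transport of lysine and other basic amino acids, 6 had positive means, 1 was called and 3 had an unadjusted limma p below 0.05, against 3.23% and 20.8% of all features. The called gene was GAP1, which encodes the general amino acid permease, at 0.74, 0.49, 0.87 and 0.64. All 4 arrays were positive, with a mean of 0.68 ± 0.16 (SD, n = 4), a 1.61-fold difference and the largest positive mean of the partners, and a limma adjusted p of 0.0418. That call was lost with quantile normalization, when any 1 array was left out and when arrays 2 and 4 were given the opposite sign. VBA3, which encodes a vacuolar transporter of basic amino acids, had 0.49, 0.63, 0.41 and 0.55 and missed the threshold with a mean of 0.52 ± 0.09 (SD, n = 4; limma adjusted p 0.0602). ALP1, which encodes an arginine permease, was positive throughout, with 0.19, 0.26, 0.28 and 0.29 and a mean of 0.26 ± 0.04 (SD, n = 4; limma adjusted p 0.214). LYP1, which encodes the specific lysine permease, had 0.05, -0.58, -0.02 and -0.28. Arrays 2 and 4 were the lower ones, and the mean was -0.21 ± 0.28 (SD, n = 4; limma adjusted p 0.465).

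Of the 6 genes that supply 2-oxoglutarate, the starting acid of the pathway, 0 were called and 2 had an unadjusted limma p below 0.05, against 3.23% and 20.8% of all features. IDP1, which encodes the mitochondrial NADP-dependent isocitrate dehydrogenase, had the most negative mean of all partners. Its ratios were -0.78, -0.97, -0.30 and -0.64, negative throughout, with a mean of -0.67 ± 0.28 (SD, n = 4) and a limma adjusted p of 0.0702. IDH1, a subunit gene of the NAD-dependent enzyme, had a mean of -0.31 ± 0.12 (SD, n = 4; limma adjusted p 0.184), and IDH2, the gene of its other subunit, had 0.25, -0.59, 0.26 and 0.08 (limma adjusted p 0.999).

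Of 5 regulator genes 0 were called in the limma test, and 0 had an unadjusted p below 0.05, against 3.23% and 20.8% of all features. GCN4, which encodes the activator of amino acid synthesis genes, had 0.35, -0.45, 0.50 and -0.34. Its arrays 1 and 3 were positive and its arrays 2 and 4 negative, as for LYS1, and the mean was 0.01 ± 0.48 (SD, n = 4; limma adjusted p 0.980). Gcn4 is controlled chiefly at translation, which arrays do not measure. MKS1, whose product restrains the retrograde pathway and is also known as LYS80 for its effect on lysine synthesis, had -0.04, -0.14, -0.32 and -0.11. It was negative throughout but close to 0, with a mean of -0.15 ± 0.12 (SD, n = 4; limma adjusted p 0.464). The other partners, for the oxoadipate carriers, the lysyl-tRNA synthetases and the mitochondrial phosphopantetheinyl transferase, had means from -0.17 for MSK1 to 0.39 for ODC1. Of these 5, 0 were called, against 3.23% of all features, and ODC1 had an unadjusted limma p of 0.00848.

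**Figure D3:**
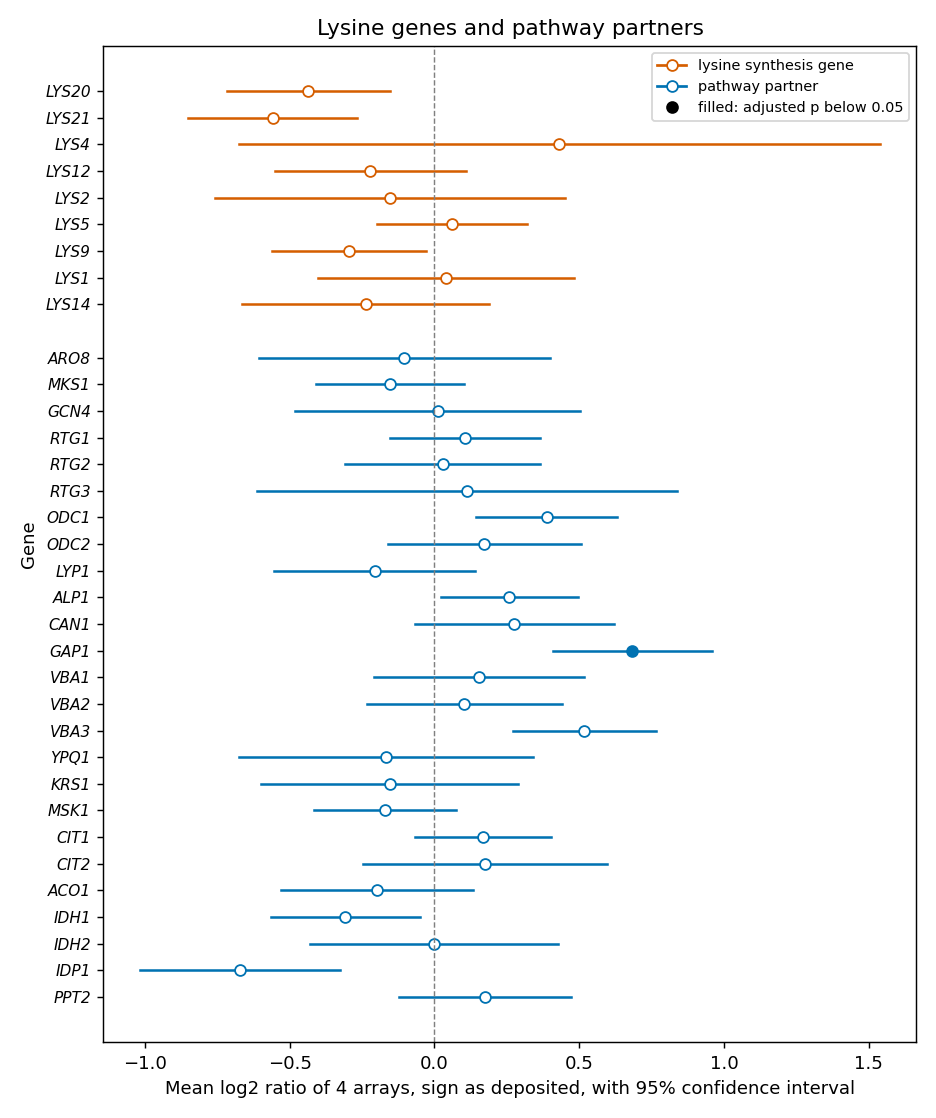
Mean log2 ratio of 4 arrays with its 95% confidence interval from limma (horizontal axis, sign as deposited) for the 9 lysine genes and the 25 measured partners (vertical axis). Intervals, which are not adjusted, lie below 0 for LYS20, LYS21 and LYS9 and for the partners IDP1 and IDH1. They lie above 0 for the partners GAP1, VBA3, ODC1 and ALP1. That of LYS4 is the widest, and GAP1 at 0.68 is the only filled, called point.

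Lists of other amino acid pathways gave the following values, to be read against the 1.86% of all features called negative, the 1.37% called positive, the 20.8% with an unadjusted limma p below 0.05 and the 47.5% with a negative mean. Of 12 aromatic synthesis genes 3 were called, all negative, and 6 had an unadjusted limma p below 0.05, with 9 negative means and a median of -0.25. Of 11 branched-chain genes 1 was called negative and 1 positive, and 4 had an unadjusted limma p below 0.05, with 10 negative means and a median of -0.23. Of 7 histidine genes 0 were called, 2 had an unadjusted limma p below 0.05, 5 means were negative and the median was -0.21. The lysine median of -0.22 lay among these, and differences between the pathways were not tested.

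The lysine genes lie apart on the chromosomes, LYS4, LYS14, LYS20 and LYS21 on IV, LYS1 and LYS12 on IX, LYS2 on II, LYS5 on VII and LYS9 on XIV, in the RefSeq table of assembly R64. LYS4, LYS5 and LYS20 are each divergent from their neighbour, with which they share the region upstream. Next to LYS4, the membrane protein gene RTN1 had 0.59, -0.80, 0.46 and -0.35, opposite in sign to LYS4 on every array. Next to LYS20, the gene MRX19 had -0.52, 0.43, -0.69 and 0.63, positive on arrays 2 and 4 where LYS20 was negative. Next to LYS5, the peroxisomal gene PEX14 had -0.28, -0.19, -0.48 and -0.18, negative throughout. None of these 3 neighbours was called, against 3.23% of all features, with limma adjusted p of 0.970, 0.954 and 0.219. LYS9 lies beside MSO1, a gene of vesicle fusion on the same strand, which had -0.70, -0.67, -0.69 and -0.77 and was called (mean -0.71 ± 0.04, SD, n = 4; limma adjusted p 0.0289). BRE5, on the other side of LYS9, had a mean of -0.38 and was not called (limma adjusted p 0.133). MSO1 was the only called gene among the measured neighbours of all 9 lysine genes, against 3.23% of all features. LYS2 is flanked by RAD16, with -0.19, 0.90, -0.78 and 0.45, and TKL2, with -0.44, 1.26, -0.27 and 1.28. Both had the signs of LYS2 on all 4 arrays, and neither was called. Opposite signs between arrays 1 and 3 and arrays 2 and 4, in either direction, were met by 34.9% of all features.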

How the data were processed

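The deposited table gave a log ratio for each probe on each array. How the authors made these ratios before they were deposited is not stated, and they were read as log2 from their range, -4.30 to 2.67. The sources used here name no dye, numerator, background correction or normalization. There were 6226 probes, 0 missing values and 0 columns without a sample. The platform annotation gave 5576 probes 1 gene, 0 several and 650 none, and names were matched through Entrez IDs with the R64 table, which lacked 4. Array medians were subtracted and probes of a gene were averaged (36 genes), leaving 6189 features. Ratios were tested against 0 with lmFit and eBayes of limma 3.58.1 in R 4.3.3, an intercept only and 3 residual degrees of freedom. The procedure was tested on simulated data with independent arrays, which lacked the correlated pairs of these data and so does not cover their effect on the calls. Tables and plots used Python 3.11.15, pandas 2.3.3 and matplotlib 3.10.9.

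All 9 lysine genes are named. Partners named are those called, ARO8, MKS1, GCN4, LYP1 and those of the largest positive and negative mean. VBA3, ALP1, IDH1, IDH2, MSK1, ODC1, RTG1 and the chromosomal neighbours fall outside that rule and were picked with their values in view. The partners not named enter the counts and the plot of intervals, except 1 listed gene that was not analysed here. The members, lists and alternatives were chosen with earlier results of these data known. Alternatives tried were no centring, quantile normalization, equal spread, robust eBayes, a term for the pairs of arrays, arrays 2 and 4 with opposite sign, unaveraged probes, omission of values shared by many probes, named genes only, a threshold of 0.01 and each array left out. Fits on arrays 1 and 3 and on arrays 2 and 4 were added after the data were seen.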

Additional observations from a re-analysis of the deposited data

Results flagged for a closer look

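LYS5 had a ratio of -0.12 on array 3, apart from the 0.10, 0.14 and 0.13 of the other arrays. RTG1, a regulator gene of the retrograde pathway, had 0.30 on array 3, apart from 0.02, 0.04 and 0.07 on arrays 1, 2 and 4. In each case the gap to the nearest array took a larger part of the whole range than Dixon's limit for 4 values. This was tested for 34 genes and met by 2, and chance alone gives about 1 in 20.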

How the results depend on the processing

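The labels give 1 group, so replicate numbers pair no samples across groups. The count of 0 called lysine genes held under no centring, quantile normalization, equal spread, robust eBayes and unaveraged probes. It also held with omission of shared values, named genes only and turned signs. The stricter threshold of 0.01 could only leave it at 0, so that setting tests nothing here. The count was 0 with each array left out too, but fewer arrays leave fewer residual degrees of freedom. The limma adjusted p of LYS21 then rose from 0.0725 to between 0.170 and 0.275, while its mean stayed between -0.62 and -0.49. These omissions are therefore a weak check of the count. The count of called lysine genes was 4 with the pair term, 6 on arrays 1 and 3 alone and 5 on arrays 2 and 4 alone. The count of called partners, 1 of 25, was 0 with quantile normalization, turned signs, a threshold of 0.01 and each array left out. It was 7 with the pair term, 8 on arrays 1 and 3 and 10 on arrays 2 and 4. Those fits called 32.7%, 33.3% and 42.0% of all features, so the partner counts lay near the background. When arrays 2 and 4 took the opposite sign, the mean was -1.01 for LYS4, -0.074 for LYS5, 0.092 for LYS9 and 0.21 for LYS12, opposite to before. The mean kept its sign for LYS1 (0.35), LYS2 (-0.52), LYS14 (-0.26), LYS20 (-0.072) and LYS21 (-0.024). The lowest limma adjusted p were then 0.0624 for LYS4, 0.0827 for LYS2 and 0.131 for LYS1. For LYS9, LYS20 and LYS21 they were 0.769, 0.867 and 0.966, so the genes nearest the threshold were not those of the main fit. On arrays 1 and 3 LYS4 and LYS5 turned to -0.58 and -0.012. On arrays 2 and 4 LYS1, LYS2 and LYS14 turned to -0.31, 0.37 and 0.020. With each array left out the mean ran from -0.091 to 0.20 for LYS1 and from -0.39 to 0.041 for LYS2, both changing sign without array 1 or array 3, from 0.03 to 0.86 for LYS4, from -0.42 (without array 2) to -0.11 (without array 1) for LYS14, and from 0.037 (without array 2) to 0.12 (without array 3) for LYS5. LYS9, LYS12, LYS20 and LYS21 stayed negative, the last from -0.62 to -0.49. The cause of these shifts was not tested.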
